A study of Mus musculus with 18 samples.

Results

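The regions described here are MDA5-protected peaks that lay outside every gene body of the GENCODE M21 annotation of the mouse genome (GRCm38), on both strands. A peak is a stretch of the genome on which reads of 1 library piled up beyond the input, and it was kept as outside genes when it shared no base with any annotated gene, whichever the strand. Of 11501 MDA5-protected peaks in 6 libraries, 2074 met this rule. The study took liver RNA from mice of 8 to 9 days of age in 2 genotypes, Adar-/-; Mavs-/- (called editing-deficient below) and Mavs-/-, with 3 biological replicates of each. Controls therefore lacked MAVS as well, although the sample titles call them wild-type, and no animal with intact MAVS entered. From each genotype and replicate there were 3 fractions, namely input RNA, RNA digested with RNase A and RNase T1 alone (RNase-only), and RNA refolded and digested in the presence of MDA5 without its CARDs (MDA5-protected), which gives 18 libraries. The peak lists hold no read totals, and the study's text gives read numbers only as rough ranges. The depth of single libraries was not used here, and fewer peaks in a library cannot be told apart from fewer reads. Since the whole liver was used, fewer cells of a type and less RNA per cell cannot be told apart either.

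MDA5 is a cytosolic sensor that assembles into filaments along long double-stranded RNA and signals through MAVS. ADAR1 converts adenosine to inosine within double-stranded RNA and thereby weakens pairing of cellular transcripts. RNase A and RNase T1 cut unpaired RNA, so RNA that remains is paired, bound or otherwise inaccessible. RNA from between genes can stem from transcription that runs past the end of a gene, from divergent transcription at promoters, from repeats or from unannotated genes.

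Peaks that overlapped between libraries on the same strand were merged into loci. The 11501 peaks formed 4770 loci, of which 889 lay wholly outside genes. The remaining 38 member peaks fell in 17 loci that reached into a gene. The 889 loci covered 190876 bases, with a median length of 138 nt (quartiles 94 and 254 nt) and a range of 23 to 2871 nt. At the limit of the rule, 26 member peaks lay within 10 bp of a gene, and 32 peaks that were not members had between 1 and 10 bases inside one.

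A set of the loci lay at gene starts. RefSeq promoter windows of 300 bases around the starts of genes (GRCm38.p6) overlapped 54 of the 889 loci. A window was overlapped by 7.23% of the MDA5-protected, 3.12% of the RNase-only and 8.02% of the input peaks outside genes. The share was thus highest in the input, and it was not tested between fractions. Of the 54 loci, 7 had a peak in all 6 MDA5-protected libraries. The 4 best-ranked of the 7 by area, the summed signal of a peak, are printed to show the composition of the RNA that remained at these sites. This choice was made after their values were seen. The printed loci overlapped RefSeq models of the protein-coding genes Tox3, Samd5, Qser1 and Epc2, so they lay outside genes only by GENCODE. With a minimum area of 1000, the loci at Tox3 and Samd5 kept peaks in 6 libraries. The others of the 7 then had a peak in 0 libraries. Each sequence is the RefSeq window written 5′ to 3′ on the strand of the peak, with the peak-covered part in capitals.
Tox3 window, chr8:90348203-90348502, plus strand, antisense to Tox3: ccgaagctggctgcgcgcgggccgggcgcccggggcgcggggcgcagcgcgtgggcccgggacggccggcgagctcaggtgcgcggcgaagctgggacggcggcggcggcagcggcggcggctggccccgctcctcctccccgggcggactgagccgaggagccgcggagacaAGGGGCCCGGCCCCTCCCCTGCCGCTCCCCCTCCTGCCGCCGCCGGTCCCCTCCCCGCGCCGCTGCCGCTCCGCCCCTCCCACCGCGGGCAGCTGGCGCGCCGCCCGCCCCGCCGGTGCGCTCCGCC
Samd5 window, chr10:9675159-9675458, minus strand, same strand as Samd5: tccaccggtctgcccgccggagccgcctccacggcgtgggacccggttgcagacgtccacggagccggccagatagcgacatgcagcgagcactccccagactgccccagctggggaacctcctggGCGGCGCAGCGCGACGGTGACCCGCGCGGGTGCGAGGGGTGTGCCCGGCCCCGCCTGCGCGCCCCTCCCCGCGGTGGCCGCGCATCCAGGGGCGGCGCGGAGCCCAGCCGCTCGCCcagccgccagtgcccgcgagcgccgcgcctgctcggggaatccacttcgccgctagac
Qser1 window, chr2:104816647-104816946, minus strand, same strand as Qser1: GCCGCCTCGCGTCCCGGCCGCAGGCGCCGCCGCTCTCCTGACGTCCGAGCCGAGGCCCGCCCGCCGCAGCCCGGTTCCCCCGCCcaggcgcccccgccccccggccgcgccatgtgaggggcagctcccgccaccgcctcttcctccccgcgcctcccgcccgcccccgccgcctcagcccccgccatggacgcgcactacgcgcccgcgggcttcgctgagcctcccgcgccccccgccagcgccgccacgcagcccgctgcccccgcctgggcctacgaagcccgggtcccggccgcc
Epc2 window, chr2:49451236-49451535, minus strand, antisense to Epc2: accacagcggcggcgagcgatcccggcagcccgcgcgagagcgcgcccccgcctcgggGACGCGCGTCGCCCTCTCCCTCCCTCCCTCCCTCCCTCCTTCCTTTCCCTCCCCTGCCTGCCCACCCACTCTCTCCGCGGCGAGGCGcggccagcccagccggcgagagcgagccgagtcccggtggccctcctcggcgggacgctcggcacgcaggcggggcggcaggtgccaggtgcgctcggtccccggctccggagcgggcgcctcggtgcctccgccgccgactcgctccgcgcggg

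The covered part held 87.4% G + C at Tox3, a gene for an HMG-box transcription factor. It held 85.3% at Samd5, 84.5% at Qser1 and 73.6% at Epc2, a gene for an enhancer of polycomb homolog. Over the 52 loci with at least 30 bases in a window, the median was 87.0% (range 45.1 to 94.0%), and 50 of 52 reached 70%. The windows at these loci had a median of 77.0%, against 52.7% over all 32851 windows, of which 9.58% reached 70%. Peaks of the other fractions that lay outside genes and in a window were alike in composition. The median per library was 84.1 to 87.5% in MDA5-protected, 85.5 to 87.9% in RNase-only and 84.2 to 86.2% in input peaks. The fractions were not tested against each other in this respect.

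**Figure D1:**
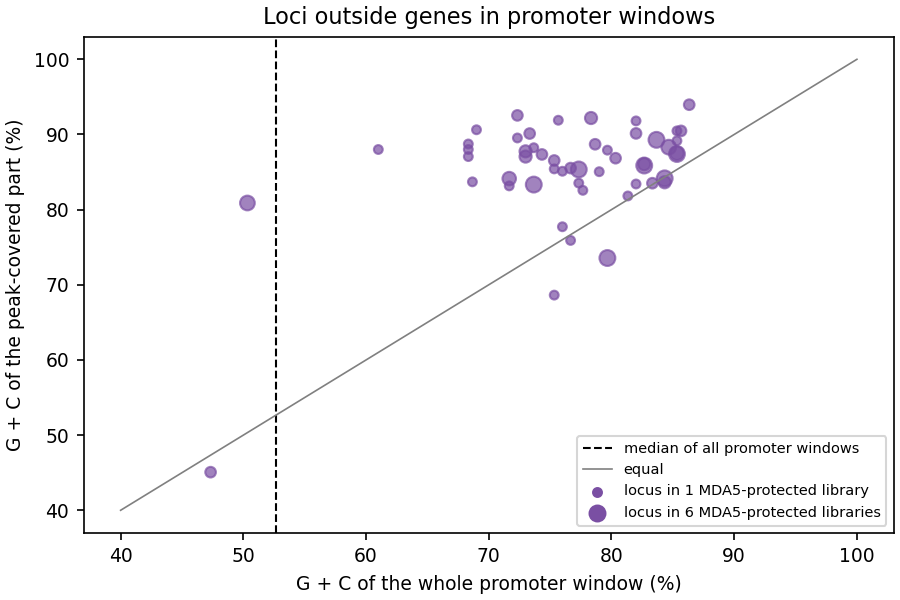
G + C content (%) of the peak-covered part against that of the whole 300-base promoter window, for the 52 loci outside genes with at least 30 bases in a window; the size of a point grows with the number of MDA5-protected libraries that had the locus. Most points lie above the line of equality and to the right of the dashed line, the median of 52.7% over all windows.

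The plus-strand locus at Tox3 (chr8:90348376-90348539, 33 bp from the annotated gene) ranked 20, 43 and 107 by area in the editing-deficient and 99, 78 and 29 in the Mavs-/- MDA5-protected libraries. It had an RNase-only peak in 6 of 6 libraries and an input peak in none. A minus-strand locus covered nearly the same bases (chr8:90348383-90348541) in 3 editing-deficient and 1 Mavs-/- library, so RNA of both strands remained at this place. The locus at Samd5 likewise had RNase-only peaks in 6 libraries, whereas those at Qser1 and Epc2 had neither an RNase-only nor an input peak in any library. At Qser1 an opposite-strand locus was present in 3 Mavs-/- and 0 editing-deficient libraries. Of all 889 loci, 66 (7.42%) had a locus on the opposite strand. Among the 54 promoter loci these were 15 (27.8%).

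The minus strand of chromosome 1 stood apart, and each comparison below is also given without it where its value then moved by over 1.5 times, or its call or the number of libraries in one direction changed. It held 569 of the 2074 member peaks (27.4%), against 54 on the plus strand of the same chromosome and 126 on the plus strand of chromosome 7, the next highest. By loci it held 275 of 889, of which 184 lay within the first 40 Mb. Per library this strand held 18.1 to 31.9% of the peaks outside genes in the MDA5-protected fraction, 7.46 to 37.2% in the RNase-only fraction and 7.56 to 11.2% in the input. Among MDA5-protected peaks in genes it held 6.57 to 9.75%. The lowest RNase-only value belonged to editing-deficient replicate 1, in which 25 such peaks lay in the first 40 Mb, against 202 and 229 in the other two replicates. Loci on this strand had an RNase-only peak in 225 of 275 cases (81.8%), against 322 of 614 (52.4%) on all other strands. They had a locus on the opposite strand in 4 cases (1.45%), against 62 (10.1%). How reads that match several places were assigned is not given in the sources used here.

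**Figure D2:**
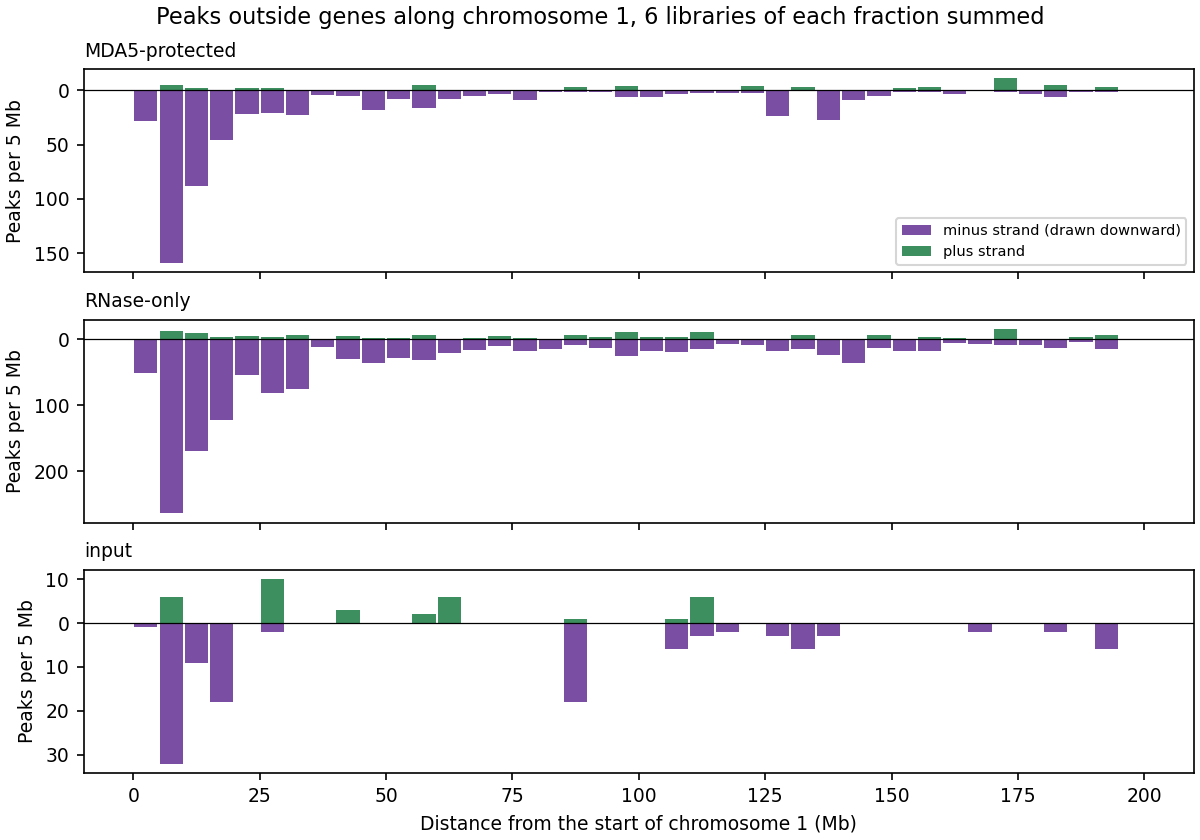
Number of peaks outside genes per 5 Mb along chromosome 1 (x axis, Mb from its start), with the 6 libraries of each fraction summed, plus strand upward and minus strand downward; the y axes differ between the panels. Minus-strand peaks crowd into the first 40 Mb in the MDA5-protected and RNase-only fractions, where plus-strand peaks are few.

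The first comparison asked what share of the peaks lay outside genes, and whether this differed between fractions and genotypes. In the editing-deficient MDA5-protected libraries 246, 487 and 499 peaks lay outside genes, and 362, 243 and 237 in the Mavs-/- libraries. As shares of all peaks these were 15.0, 17.6 and 17.4% against 19.8, 19.9 and 20.1%. Every editing-deficient share was below every Mavs-/- share. The mean was 16.7% ± 1.42 (SD, n = 3) against 19.9% ± 0.147 (n = 3), a difference of -3.26 points (two-sided exact permutation test, p = 0.1, adjusted p = 0.4 over 8 comparisons between genotypes). With 3 libraries against 3, a p below 0.1 cannot be reached. Numbers went the other way, at 411 ± 143 against 281 ± 70.5 (difference 130, exact permutation p = 0.2, adjusted p = 0.4). The editing-deficient libraries also had more peaks in all, 1636 to 2868 against 1180 to 1829, and when each library was cut to the peak number of the smallest one the difference became -46. The difference in number was 83 without the minus strand of chromosome 1. By summed area, peaks outside genes held 29.8, 28.1 and 21.0% in editing-deficient and 21.1, 28.2 and 39.0% in Mavs-/- MDA5-protected libraries. In this measure the genotypes overlapped, and it was not tested.

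Input RNA had few peaks outside genes. They made up 2.51 to 4.00% of input peaks, against 15.0 to 20.1% of MDA5-protected peaks, and no library of either fraction overlapped the other. The difference was 15.3 points (exact permutation test stratified by genotype, 6 libraries against 6, p = 0.005, the smallest this test allows, adjusted p = 0.025 over 5 comparisons). Within genotypes it was 13.8 and 16.8 points in editing-deficient and Mavs-/- libraries (exact permutation p = 0.1 each). Without the minus strand of chromosome 1 it was 12.5 points (exact permutation p = 0.005, adjusted p = 0.025). With the replicate number as a block the difference of 15.3 points no longer passed (exact sign-flip permutation p = 0.0313, the smallest that test allows, adjusted p = 0.0781). RNase-only libraries held 13.5 to 20.1% of their peaks outside genes, and MDA5-protected libraries differed from them by 0.68 points (exact permutation p = 0.58, adjusted p = 0.58). Since peaks of the protected fractions were called against the input as control, these shares are not levels of RNA.

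**Figure D3:**
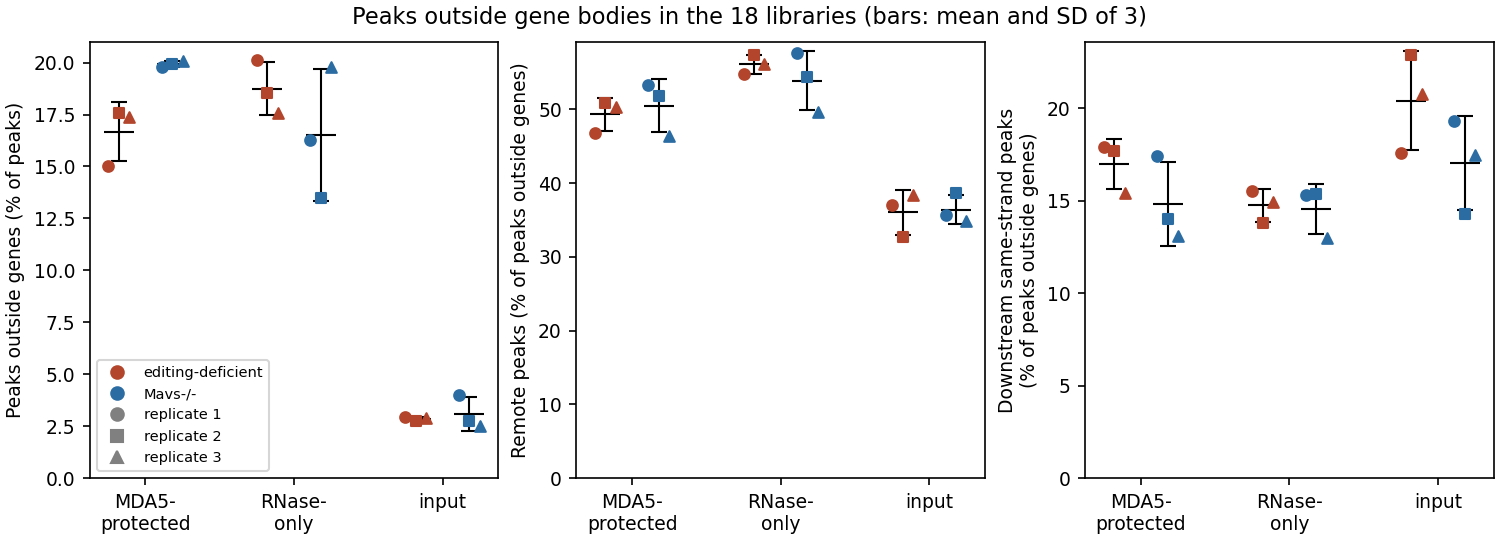
Share of peaks outside genes (left, % of all peaks), and of remote (middle) and downstream same-strand peaks (right, % of peaks outside genes), for each of the 18 libraries by fraction; black bars give mean and SD of 3. The MDA5-protected shares outside genes (15.0 to 20.1%) lie far above those of the input (2.51 to 4.00%) and among those of the RNase-only libraries.

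Position relative to the nearest gene was described by class. A peak within 10000 bp of a gene was called downstream or upstream by the gene end it faced, and same or opposite by strand. A peak farther away was called remote. Of the 889 loci, 469 (52.8%) were remote, 124 (13.9%) were downstream on the same strand, 117 (13.2%) upstream on the same strand, 98 (11.0%) upstream on the opposite strand and 81 (9.11%) downstream on the opposite strand. The median distance to a gene was 11153 bp (quartiles 2644 and 30409 bp), 150 loci lay within 1000 bp and 63 lay more than 100000 bp away. Of all bases between genes, 67.1% were remote by the same measure, and an even division of the rest gives 8.23% to each near class. The nearest gene was protein-coding for 405 loci, a pseudogene for 239 and a lincRNA for 114. A RefSeq gene model overlapped 180 of the 889 loci (20.2%), among them 89 with a lncRNA, so part of the loci lay outside genes only by GENCODE.

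The same-strand downstream class, where readthrough transcripts would lie, made up 17.9, 17.7 and 15.4% of the peaks outside genes in editing-deficient and 17.4, 14.0 and 13.1% in Mavs-/- MDA5-protected libraries. The ranges overlapped, and the difference was 2.17 points (exact permutation p = 0.2, adjusted p = 0.4). Compared with RNase-only peaks the MDA5-protected share differed by 1.26 points (stratified exact permutation p = 0.18, adjusted p = 0.3). This difference depended on the settings. It passed the threshold with gene bodies widened by 1000 bp (4.09 points, exact permutation adjusted p = 0.0125) and with a limit of 20000 bp (3.95 points, adjusted p = 0.0167). It was 0.66 points with a limit of 5000 bp, 0.71 points by any gene end within the limit, 0.32 points with a minimum area of 1000 and -0.027 points with gene bodies of the same strand only, none of them past the threshold. It was 2.40 points without the minus strand of chromosome 1 (exact permutation adjusted p = 0.283). In the input the mean share was higher in both genotypes, at 20.4% ± 2.67 in editing-deficient and 17.0% ± 2.54 in Mavs-/- libraries (n = 3 each). MDA5-protected minus input, the differences were -3.40 and -2.20 points (exact permutation p = 0.3 and p = 0.2). Without the minus strand of chromosome 1 they were -0.95 and 0.73 points (exact permutation p = 0.6 and p = 0.9). Of the 124 downstream loci 93 followed a protein-coding gene, and the median distance was 2677.5 bp. Merged over libraries, their median length was 226.5 nt, against 184 nt for opposite-strand downstream and 133 nt for remote loci. Single peaks of all near classes had medians of 126, 135 and 136 nt in editing-deficient and 165, 98 and 92 nt in Mavs-/- libraries. Those of remote peaks were 125, 138 and 131 nt, and 139, 114.5 and 100.5 nt. An RNase-only peak overlapped 70 of the 124 (56.5%), an input peak 12 (9.68%).

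The remote share was 49.9% ± 2.78 in MDA5-protected and 55.0% ± 2.92 in RNase-only libraries (SD, n = 6 each), a difference of -5.07 points (stratified exact permutation p = 0.02, adjusted p = 0.05, which is not under the threshold of 0.05). Without the minus strand of chromosome 1 it was -7.34 points and passed (exact permutation p = 0.015, adjusted p = 0.0375). The difference was -6.77 points within editing-deficient and -3.38 points within Mavs-/- libraries (exact permutation p = 0.1 and p = 0.4). Without the minus strand of chromosome 1 these were -11.1 and -3.58 points (exact permutation p = 0.1 and p = 0.3). Between genotypes the remote share differed by -1.20 points (exact permutation p = 0.6, adjusted p = 0.8). Without the minus strand of chromosome 1 it was 39.8, 39.3 and 37.1% in editing-deficient and 45.0, 43.7 and 40.2% in Mavs-/- libraries, which did not overlap (difference -4.26 points, exact permutation p = 0.1, adjusted p = 0.267).

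**Figure D4:**
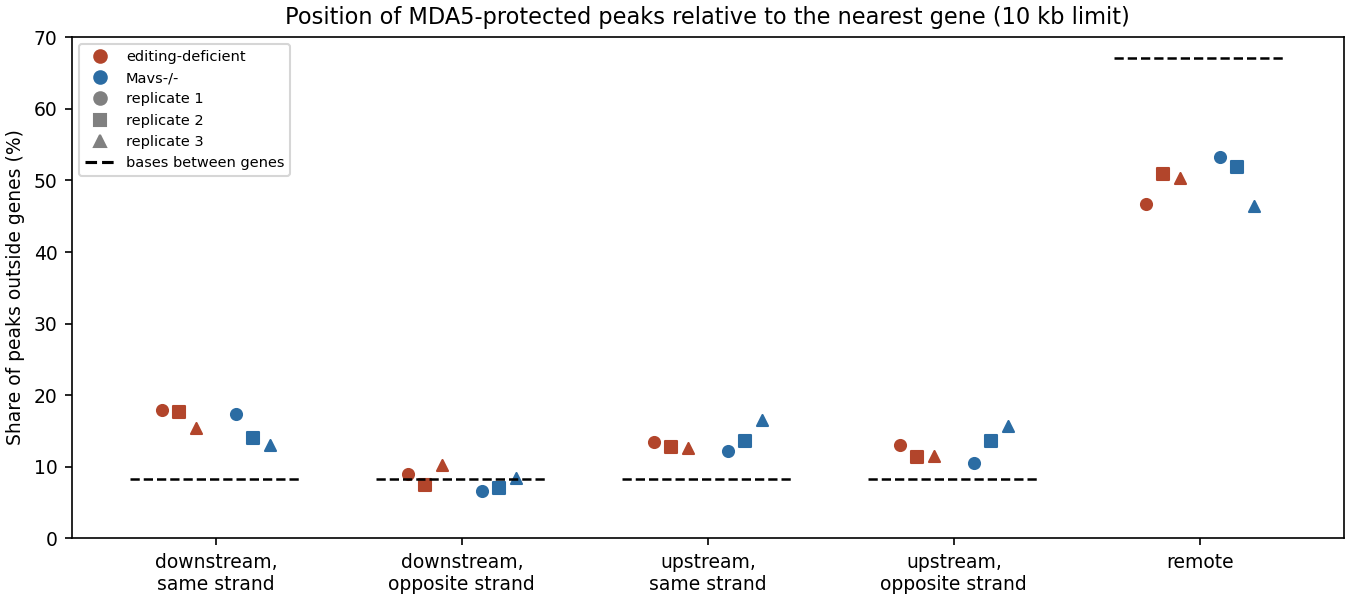
Share (%) of MDA5-protected peaks outside genes in each position class, 1 point per library, with a dashed line for the share of bases between genes in the same class (near classes taken as equal). Remote peaks (46.4 to 53.3%) lie below the line at 67.1% in all 6 libraries, and same-strand downstream peaks (13.1 to 17.9%) above the line at 8.23%.

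The downstream loci named by rule illustrate the range. The strongest lay 264 bp past the end of Commd3, a gene for a COMM domain protein (chr2:18676495-18676630, plus strand). It ranked 3, 4 and 3 by area among all peaks of the editing-deficient libraries and 3, 3 and 4 in Mavs-/- libraries, with RNase-only peaks and input peaks in all 6 libraries of each fraction. A locus 1191 bp past Dram2, which encodes a regulator of autophagy (chr3:106577081-106577478, plus strand), was longer and weaker. Its peaks covered 232, 281 and 305 nt in editing-deficient and 350, 335 and 241 nt in Mavs-/- libraries, at ranks of 263 to 684, and no RNase-only or input library had a peak there. Downstream of Stxbp4, a gene for a syntaxin-binding protein, a locus at 2973 bp (chr11:90473417-90473519, minus strand) had ranks of 108 to 901, and one at 3648 bp from the lincRNA 1700041C23Rik (chr9:57189756-57189807, plus strand) ranks of 163 to 329. Both had a peak in all 6 libraries. With a minimum area of 1000, peaks remained in 3 libraries at Dram2, 4 at Stxbp4, and 6 each at Commd3 and 1700041C23Rik.

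Of the 3 longest recurrent loci, 2 followed genes of liver metabolism. Otc encodes ornithine transcarbamylase of the urea cycle, and the longest recurrent locus began 674 bp past its end (chrX:10321698-10324568, plus strand, 2871 nt). Its peaks covered 1248, 1688 and 1999 nt in editing-deficient and 1326, 1550 and 0 nt in Mavs-/- libraries. Only Mavs-/- replicate 3 had no peak. RNase-only peaks covered 0, 1521 and 2191 nt, and 1200, 2227 and 921 nt, of the same locus, and no input peak touched it. Downstream of Cyp2b9, a cytochrome P450 of drug and steroid metabolism, a locus of 1935 nt (chr7:26218186-26220120, plus strand) lay 7525 bp past the gene. It was covered over 408, 1397 and 1476 nt in editing-deficient and 942, 1226 and 1134 nt in Mavs-/- libraries. The third, of 1821 nt, lay 868 bp upstream of the pseudogene Gm5834 on the minus strand of chromosome 1 (chr1:139995073-139996893).

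Many loci were neighbours. Loci joined on a strand over gaps of up to 10000 bp gave 639 stretches, of which 105 held at least 2 loci and together 355 of the 889 (39.9%). This grouping was chosen after the data were seen. The stretch past Cyp2b9 (chr7:26216018-26225412) held 7 loci. Peaks covered 2409, 4773 and 4845 nt of it in editing-deficient and 3146, 3846 and 2732 nt in Mavs-/- libraries. The genotypes overlapped. Input peaks covered 0, 648 and 388 nt of these loci in editing-deficient but 3777, 1162 and 854 nt in Mavs-/- input. A stretch upstream of Cyp2j9, another cytochrome P450, on the same strand (chr4:96598646-96614660) showed 854, 1613 and 0 nt in editing-deficient and 2646, 2871 and 2327 nt in Mavs-/- libraries. Here every Mavs-/- library was above every editing-deficient library. RNase-only peaks in it covered 0, 645 and 179 nt against 1697, 1277 and 1053 nt, so the same order held without MDA5, and input peaks covered none. On the opposite strand past the end of Slco1a1, which encodes an organic anion transporter, a stretch (chr6:141900761-141907137) of 10 loci rested on 1 library. Editing-deficient replicate 3 had 4362 nt, Mavs-/- replicate 3 had 194 nt and the other 4 libraries had 0. Both strands were covered between the zinc finger genes Zfp971 and Zfp931 on chromosome 2. Past the end of Zfp931, peaks of a plus-strand stretch (chr2:178063999-178066851) covered 386, 1451 and 1649 nt in editing-deficient and 1654, 0 and 0 nt in Mavs-/- libraries. In a minus-strand stretch (chr2:178062542-178066580) they covered 511, 771 and 1346 nt against 602, 504 and 0 nt. The genotypes overlapped on both strands.

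**Figure D5:**
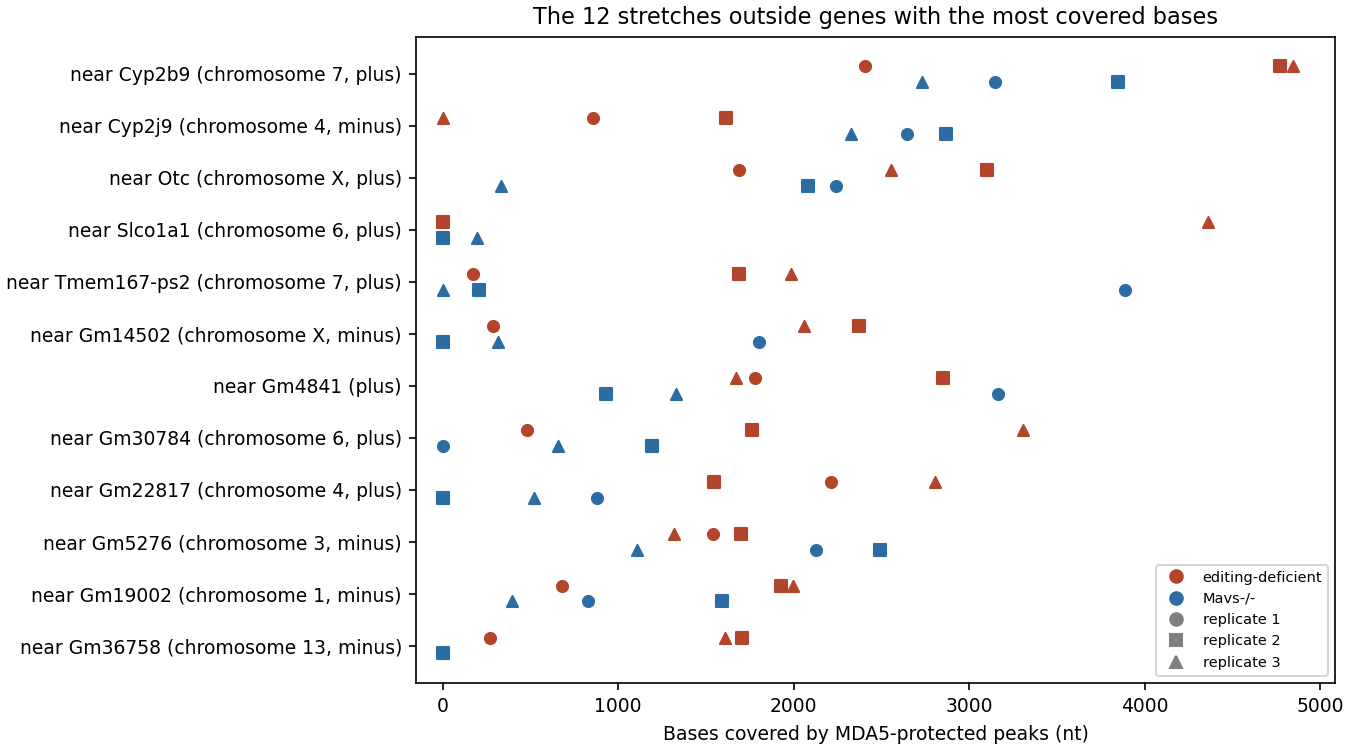
Bases covered by MDA5-protected peaks (nt) in each library, for the 12 stretches outside genes with the most covered bases, named by the nearest gene and strand. The stretch near Cyp2j9 shows all 3 Mavs-/- libraries above the 3 editing-deficient ones, and that near Slco1a1 rests on 1 library.

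Recurrence was compared next. Of the 889 loci, 434 (48.8%, 95% exact binomial interval 45.5 to 52.2%) were seen in 1 library, against 47% of all 4770 loci, and 52 (5.85%, 4.40 to 7.60%) in all 6, against 6.79% of all loci. Intervals cover counting error only. Loci in 6 libraries were shorter, with a median of 88.5 nt against 129.5 nt for loci in 1 library, and 13 of 52 had an input peak, against 12 of 434. Per library, 72.8, 64.7 and 61.1% of editing-deficient and 51.4, 77.4 and 76.4% of Mavs-/- member peaks overlapped a peak of another replicate of the genotype (difference -2.18 points, exact permutation p = 0.8, adjusted p = 0.8, and -3.72 points without the minus strand of chromosome 1). Outside minus inside genes, recurrence in the same libraries differed by -2.44 points (exact sign-flip permutation test over 6 libraries, p = 0.0625, adjusted p = 0.104), and by -0.95 points without the minus strand of chromosome 1 (p = 0.656, adjusted p = 0.656).

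The 5 loci with the best mean rank among those in all 6 libraries differed widely in signal, with mean ranks of 2, 3.33, 23.5, 29.8 and 46.3. Per library the 2 strongest members held 68.4 to 83.4% of the summed area of all members. The first (chr1:5170572-5170661, minus strand) lay 8043 bp from Atp6v1h, a subunit gene of the vacuolar proton pump, and ranked 2 in each of the 6 libraries. It also had a peak in all 6 RNase-only and all 6 input libraries, and a plus-strand locus (chr1:5170576-5170706) faced it in 5 libraries. The second was the locus past Commd3. The third (chr2:73012818-73012960, plus strand), 24141 bp from Sp3os but within the RefSeq lncRNA Gm39850, ranked 46, 40 and 31 in editing-deficient and 8, 10 and 6 in Mavs-/- libraries, without overlap of the genotypes. It had a peak in all 6 RNase-only and all 6 input libraries. The fourth (chr15:99002893-99002957, plus strand), 3100 bp upstream of the pseudogene Gm8973, ranked 14 to 39, with no RNase-only peak but an input peak in all 6 libraries. The fifth (chr19:27553254-27553293, minus strand) was remote at 39975 bp from a gene and ranked 9 to 152, with RNase-only peaks in all 6 libraries and input peaks in the 3 editing-deficient ones.

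By a rule of 2 or 3 libraries against 0, loci seen in 1 genotype alone were more often editing-deficient, as was also the case over all loci. Of the 889 loci, 100 (11.2%, exact interval 9.25 to 13.5%) had a peak in 2 or 3 editing-deficient and 0 Mavs-/- libraries, against 14.4% of all loci. The reverse held for 35 (3.94%, 2.76 to 5.43%), against 2.41% of all loci. Without the minus strand of chromosome 1 the counts were 62 and 29 of 614 (10.1% and 4.72%). In all 3 libraries of a genotype and none of the other, the counts were 16 (2.96% of all loci met this rule) and 18 (0.818% of all loci). With peak numbers equalised between libraries the counts were 27 editing-deficient and 54 Mavs-/- loci under the first rule, so their order was reversed. Without editing-deficient replicate 2 the counts were 24 and 54. The share over all loci was not computed without that strand, with equalised numbers or without that replicate, so members cannot be set against all loci there. An input peak overlapped 1 of the 100 and 5 of the 35.

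The 4 leading editing-deficient loci were long and ranked 205 to 1780 by area, in libraries of 1636 to 2868 peaks. With a minimum area of 1000, each of them kept a peak in 2 libraries. A locus on chromosome 5 (chr5:43011767-43012384, plus strand), 14164 bp from the lincRNA Gm43700, was covered over 256, 618 and 446 nt in the 3 editing-deficient MDA5-protected libraries. RNase-only peaks nevertheless covered 561, 420 and 585 nt of it in the Mavs-/- libraries, so RNA from this place remained in both genotypes. One of a pair on chromosome 4 (chr4:21246408-21246798, plus strand) likewise had RNase-only peaks in all 6 libraries. The other (chr4:21242293-21242750, plus strand) had them in 2 editing-deficient libraries and in no Mavs-/- library. The stretch that holds this pair (chr4:21237987-21246798) was covered over 878, 0 and 522 nt in the Mavs-/- MDA5-protected libraries. That of the chromosome 5 locus (chr5:43011119-43014928) was covered over 259, 0 and 0 nt in them. The fourth (chrX:150691334-150691767, plus strand), 2538 bp past the pseudogene Gm15132, was covered over 351, 403 and 410 nt.

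Of the 4 leading Mavs-/- loci, 3 were also peaks of the input in both genotypes. A locus on chromosome 17 (chr17:22876422-22876609, minus strand) ranked 15, 29 and 19, one on chromosome 9 (chr9:4260381-4260540, minus strand) 30, 24 and 22, and one on chromosome 7 (chr7:48137552-48137784, plus strand) 75, 750 and 27. Each had an input peak in all 6 input libraries, so RNA from these places was present before digestion in editing-deficient liver too. RNase-only peaks overlapped the first in 1 library, the second in none and the third in 1 library of each genotype. The third overlapped a RefSeq model of the protein-coding gene Gm51464. The fourth (chr12:45195577-45195686, minus strand), 33529 bp from the lincRNA Gm48508, ranked 448, 271 and 160. It had RNase-only peaks in all 3 Mavs-/- libraries and in no editing-deficient library, and no input peak.

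Median lengths of peaks outside genes were below those of peaks in genes in every library, although the adjusted test did not pass. Median lengths were 126, 138 and 134 nt in editing-deficient and 146.5, 108 and 96 nt in Mavs-/- libraries, against 204.5, 204, 196, 232, 159 and 137 nt for peaks in genes of the same 6 libraries. The difference was -64 nt on average, of the same sign in 6 of 6 libraries (exact sign-flip permutation p = 0.0313, the smallest 6 libraries allow, adjusted p = 0.0781 over 5 comparisons). The same order held in every RNase-only library (79 to 135 nt outside against 178 to 221 nt in genes). It also held in every input library (90 to 163 against 281 to 364 nt), so it was not particular to MDA5-protected peaks. Between genotypes the median length of MDA5-protected peaks outside genes differed by 15.8 nt (exact permutation p = 0.4, adjusted p = 0.64). Against RNase-only peaks outside genes it was 125 ± 19.2 against 114 ± 19.3 nt (SD, n = 6 each). This difference was 10.4 nt (stratified exact permutation p = 0.365, adjusted p = 0.456). Few member peaks were long. Of 2074 member peaks 88 reached 500 nt, and the longest had 1635 nt. Opposite-strand overlap within a library was 5.41% ± 1.45 outside against 8.12% ± 3.23 inside genes, lower in 6 of 6 libraries but not past the threshold (SD, n = 6, exact sign-flip permutation p = 0.0313, adjusted p = 0.0781). It was lower outside genes in 4 of 6 libraries without the minus strand of chromosome 1 (difference -2.52 points, exact sign-flip permutation p = 0.156, adjusted p = 0.195). The difference was 5.82 points in the other direction when only genes of the same strand were considered.

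RNase-only support was common and input support rare. Since MDA5-protected peaks were called against the input as control, input support was limited in advance by the peak calling. It is no measure of how much of this RNA the input held. An RNase-only peak of the same genotype and number overlapped 22.8, 55.0 and 56.3% of members in editing-deficient and 58.0, 53.1 and 41.8% in Mavs-/- libraries. The low value was that of editing-deficient replicate 1, and without it the sign of the genotype difference turned, from -6.25 to 4.72 points (exact permutation adjusted p = 0.8 in both). An input peak overlapped 4.88, 3.08 and 2.40% against 5.80, 5.35 and 7.17%, without overlap of the genotypes (difference -2.65 points, exact permutation p = 0.1, adjusted p = 0.4). Compared with peaks in genes, RNase-only support differed by -1.95 points (exact sign-flip permutation p = 0.406, adjusted p = 0.406). This was -8.10 points without the minus strand of chromosome 1, lower outside genes in 6 of 6 libraries (exact sign-flip permutation p = 0.0313, adjusted p = 0.0521). Input support differed by 0.40 points (exact sign-flip permutation p = 0.156, adjusted p = 0.195), and by 1.17 points without that strand, higher outside genes in 6 of 6 libraries (p = 0.0313, adjusted p = 0.0521). Neither passed the threshold. Over loci, 329 of 889 (37.0%) had no peak in any RNase-only or input library. The same share was not computed over all loci or over loci in genes. Of the 329 loci, 137 (41.6%) recurred in at least 2 MDA5-protected libraries, against 51.2% of all 889, and 18 were in all 6. Their median length was 109 nt, against 138 nt for all 889.

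The most remote recurrent loci had no gene near them. A locus on chromosome 5 (chr5:47417931-47418026, minus strand) lay 216476 bp from the nearest gene and was seen in 1 library of each genotype. One on chromosome 6 (chr6:78700221-78700301, plus strand), at 202780 bp, was present in all 6, over 63 nt in editing-deficient replicate 1 and 81 nt in each of the others, and ranked 84, 172 and 193 against 170, 118 and 109. RNase-only peaks overlapped it in 4 libraries, and no input peak did. The third, at 186013 bp (chr1:19802780-19803042, minus strand), was seen in 2 editing-deficient and 1 Mavs-/- library.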

How the data were processed

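The peak lists of 18 libraries were used, and none was left out. Single-end reads were trimmed (Trim Galore 0.6.6) and mapped by the authors to GRCm38 (NextGenMap), who then called peaks in each library with Genrich 0.6.1, for the protected fractions against the input of the same genotype, excluding rRNA and blacklisted regions. The deposited files give a score (area under the curve, lowest value 500.008) and the -log10 of the P and adjusted P for each peak. From these, peaks were set against GENCODE M21 gene bodies by 1 bp of overlap, and the nearest gene end, merged loci, recurrence and support were computed in Python 3.11.15 with pandas 2.3.3 and scipy 1.17.1. Comparisons used two-sided exact permutation tests over libraries, with Benjamini-Hochberg adjustment within each of 3 families. The scripts were tested on simulated data. Members, lists and rules were chosen with earlier results of these data known. Loci were named by fixed rules: the 5 best by mean rank of area among those in all 6 libraries, 4 seen in editing-deficient and 4 in Mavs-/- libraries alone, 5 downstream on the same strand, the 3 longest and the 3 farthest recurrent loci. Promoter loci and stretches were added after their values were seen. A LINE fragment the study cloned overlaps a gene body and is no member. Base composition of all members, inverted repeats and groups of like sequence were planned but not analysed here, since no genome sequence was used.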

Additional observations from a re-analysis of the deposited data

Results flagged for a closer look

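The share of peaks outside genes moved in opposite directions in the 2 genotypes when MDA5-protected libraries were set against RNase-only libraries of the same number. It was lower with MDA5 in all 3 editing-deficient replicates (mean -2.07 points) and higher in all 3 Mavs-/- replicates (mean 3.42 points). In replicate 3 the MDA5-protected and RNase-only shares were close, at 17.40 and 17.56% in editing-deficient and 20.08 and 19.81% in Mavs-/- libraries. Libraries were paired by number here, which the main tests did not do. The difference between the genotypes was -5.48 points. Of the 5 comparisons between fractions, this one was flagged because all replicates of the 2 genotypes moved in opposite directions. That choice fixes the result of an exact permutation test over the 6 replicate differences at its smallest value (p = 0.1). The test therefore adds nothing to the description. Without the minus strand of chromosome 1 the means were -2.04 and 3.51 points, and not every replicate kept its direction (difference -5.55 points, exact permutation p = 0.2).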

How the results depend on the processing

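Of 251 recomputed values under the alternatives, 207 kept their direction and side of the threshold, or for counts stayed within 1.5 times. The higher share outside genes in MDA5-protected than in input libraries stayed at 15.1 to 15.8 points when a library was left out, but its adjusted p then ranged from 0.0417 to 0.0833, since fewer arrangements exist, and with the replicate block it was 15.3 points at an adjusted p of 0.0781. The block changed no other call. Same-numbered MDA5-protected and RNase-only libraries deviated together (mean r 0.15 in editing-deficient and 0.12 in Mavs-/- libraries, each of the 6 libraries best with its own number), but 1 of the Mavs-/- pairs was at 0.086 and the genotypes did not pair, so the main tests do not use the numbers, although support was counted between libraries of the same number. With genes of the same strand only, reversed differences were 0.82 points (remote share, genotype), 2.27 points (recurrence, genotype), -11.5 nt (length, against RNase-only), -0.027 points (downstream share, against RNase-only), 0.087 points (recurrence, against inside), 0.65 points (RNase-only support, against inside) and 5.82 points (opposite strand, against inside), and the remote share against RNase-only passed at -4.42 points. With gene bodies widened, the share outside against RNase-only was -0.44 points and the downstream share passed at 4.09 points. With a minimum area of 1000, genotype differences were 1.32 (remote) and 2.95 points (recurrence), the share outside against RNase-only passed at 3.92 points, and 18 editing-deficient and 8 Mavs-/- loci remained by the first rule. Equal numbers of peaks gave -46 peaks, and 27 and 54 loci. Among the loci picked by rule or at promoters, 17 changed their number of libraries with the minimum area and 13 kept it. With equal numbers of peaks 8 changed it and 22 kept it. A limit of 20000 bp gave 0.16 points (remote, genotype), and 3.95 (downstream) and -8.84 points (remote) against RNase-only, both past the threshold. Asking for all 3 and 0 libraries left 16 and 18 loci. Without the minus strand of chromosome 1, chosen after the data were seen, the remote share against RNase-only was -7.34 points and the editing-deficient loci were 62. Leaving out 1 replicate gave ranges of -3.26 to 0.19 points (remote, genotype), -12.1 to 4.72 (RNase-only support, genotype), -21.8 to 17.6 (recurrence, genotype), -0.085 to 1.46 (share outside against RNase-only) and -5.32 to -4.75 (remote against RNase-only, adjusted p 0.0417 to 0.208), and 24 to 148 editing-deficient and 22 to 54 Mavs-/- loci. The cause of these changes was not tested. For these locus counts the share over all loci was computed only under the rule of all 3 and 0 libraries. The window of inverted repeats was not run, as no genome sequence was used. The depth of single libraries was not used here, so places without a peak are not shown to lack RNA.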
